A study of Mus musculus with 6 samples.

Results

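The genes described here are the mitotic kinases Aurka, Aurkb, Aurkc, Plk1 and Plk4 and the partner genes Tpx2, Bora, Incenp, Birc5 and Cdca8, in whole mouse testis on postnatal day 9. They were chosen by name, and the rows of all 10 were found by symbol among the 54532 genes of the deposited table. Messenger RNA was compared between 3 libraries of testis from mice labelled Ppp6r3 cKO, a conditional knockout, and 3 libraries of wild-type testis, both from day 9. The product of Ppp6r3 is a regulatory subunit of the phosphatase PP6. Cre line, deleted exons and strain are absent from the labels. Whether each sample was a separate animal is not stated either, so that p-values cover only the spread among these libraries, which may be technical.

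Aurora kinases drive the steps of cell division. Aurora A acts at centrosomes and the spindle, where the microtubule protein TPX2 binds and activates it and where it works with Bora to switch on PLK1. Aurora B sits in the chromosomal passenger complex with INCENP, survivin (the product of Birc5) and borealin (the product of Cdca8) and corrects attachments of chromosomes to the spindle, and Aurora C, expressed mainly in germ cells, can take the place of Aurora B there during meiosis. PLK4 starts the duplication of centrioles. In human cells, PP6 is known to remove the activating phosphate of Aurora A. The present values are RNA levels and do not measure phosphorylation. In the testis of this age, dividing spermatogonia and Sertoli cells and the first germ cells in meiosis share the tissue, and a bulk level cannot tell fewer cells of a type from less RNA per cell.

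Promoter sequences of 6 of the 10 genes were found in the RefSeq promoter table (GRCm38.p6), and 4 of them are shown here because a promoter element of genes of G2 and mitosis, the cell cycle genes homology region (CHR, TTTGAA), lay in 3 of them and not in that of Aurkc. Each is the 150 bases from 100 before the RefSeq start to 50 after it, 5′ to 3′ on the strand of the gene, with capitals for TTTGAA and for CCAAT on either strand. They lie at chr2:172370521-172370670 (Aurka, minus strand), chr7:122159335-122159484 (Plk1, plus strand), chr4:124936868-124937017 (Cdca8, minus strand) and chr7:6995285-6995434 (Aurkc, plus strand). The window of Cdca8 lies inside the gene as GENCODE M21 gives it (124918465 to 124939311), away from its start at 124939311.
Aurka: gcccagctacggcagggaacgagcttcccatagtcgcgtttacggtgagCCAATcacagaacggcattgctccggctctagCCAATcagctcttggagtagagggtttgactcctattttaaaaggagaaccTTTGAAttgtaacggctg
Plk1: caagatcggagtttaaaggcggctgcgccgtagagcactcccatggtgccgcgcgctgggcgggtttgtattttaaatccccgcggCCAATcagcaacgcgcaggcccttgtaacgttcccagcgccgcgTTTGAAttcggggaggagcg
Cdca8: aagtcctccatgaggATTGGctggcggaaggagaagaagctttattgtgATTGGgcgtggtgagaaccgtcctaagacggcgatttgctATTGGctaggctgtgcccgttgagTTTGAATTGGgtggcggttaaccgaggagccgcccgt
Aurkc: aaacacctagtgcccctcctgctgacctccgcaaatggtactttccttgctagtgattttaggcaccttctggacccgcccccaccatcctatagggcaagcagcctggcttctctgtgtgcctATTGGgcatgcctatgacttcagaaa
The CHR letters began at base 33 after the start in Aurka, base 31 in Plk1 and base 14 in Cdca8, each on the strand of the gene. In Cdca8 their last base was also the first of a reversed CCAAT box. That box, on either strand, was found 2 times in Aurka, 1 time in Plk1, 4 times in Cdca8 and 1 time in Aurkc, where it lay at base 25 after the start. The windows of Plk4 and Birc5 held neither set of letters. Of all 32851 promoter windows of this length in the table, 8.0% held the CHR letters, 23.4% held the CCAAT box and 1.9% held both, each on either strand. These matches describe letters and not bound sites. The promoters of Aurkb, Tpx2, Bora and Incenp are not shown.

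The libraries held 15970908 to 16606867 fragments, as inferred from the steps between the deposited FPKM values (fragments per kilobase of exon, scaled to library depth). Ppp6r3 itself was at 15.36 ± 0.459 FPKM in Ppp6r3 cKO and 21.02 ± 0.257 FPKM in wild type (SD, n = 3 each), a fall of 0.45 on the log2 scale (limma adjusted p = 0.000697), and its libraries did not overlap between groups. Summed levels of 14 Sertoli cell markers overlapped (3837 to 3962 FPKM in Ppp6r3 cKO, 3832 to 3956 FPKM in wild type), while those of 26 meiotic prophase genes did not (331 to 344 FPKM in Ppp6r3 cKO, 578 to 581 FPKM in wild type). Single Sertoli markers did differ, in both directions: the groups lay apart in 10 of the 14, against 36.9% of all genes tested. Ppp6r3 cKO replicate 1 stood apart in base composition: its median deviation from the mean of the 6 libraries was -0.112 on the log2 scale in the tenth of genes lowest in GC and 0.126 in the highest.

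In Ppp6r3 cKO testis, the RNA of Bora and Aurkc fell, and that of the other 8 genes did not pass the test. Converted back from the fit on log2(FPKM + 0.1), Bora stood at 0.78 of its wild-type level and Aurkc at 0.60. By mean FPKM the ratios were 0.77 and 0.58. Aurka, the kinase on which PP6 is known to act in human cells, had all 6 libraries between 18.979 and 19.476 FPKM. Of all 17667 genes tested with limma on log2(FPKM + 0.1), 15.5% changed at an adjusted p under 0.05 (7.65% rose and 7.83% fell), so 2 of 10 is close to that share. The median log2 fold change of the 10 genes was 0.004, against 0.003 over all genes tested. No gene of the 10 rose by limma at the adjusted threshold. At an unadjusted p under 0.05, 2 were higher (Plk1 and Incenp) and 3 lower (Tpx2, Bora and Aurkc). The share of all genes at that unadjusted threshold was not counted. Voom on recovered fragments called 1 higher (Plk1) and 2 lower (Bora and Aurkc). It also called more of all genes, 4064 of 17667 (2048 higher and 2016 lower). All 10 passed the low-value filter.

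**Figure D1:**
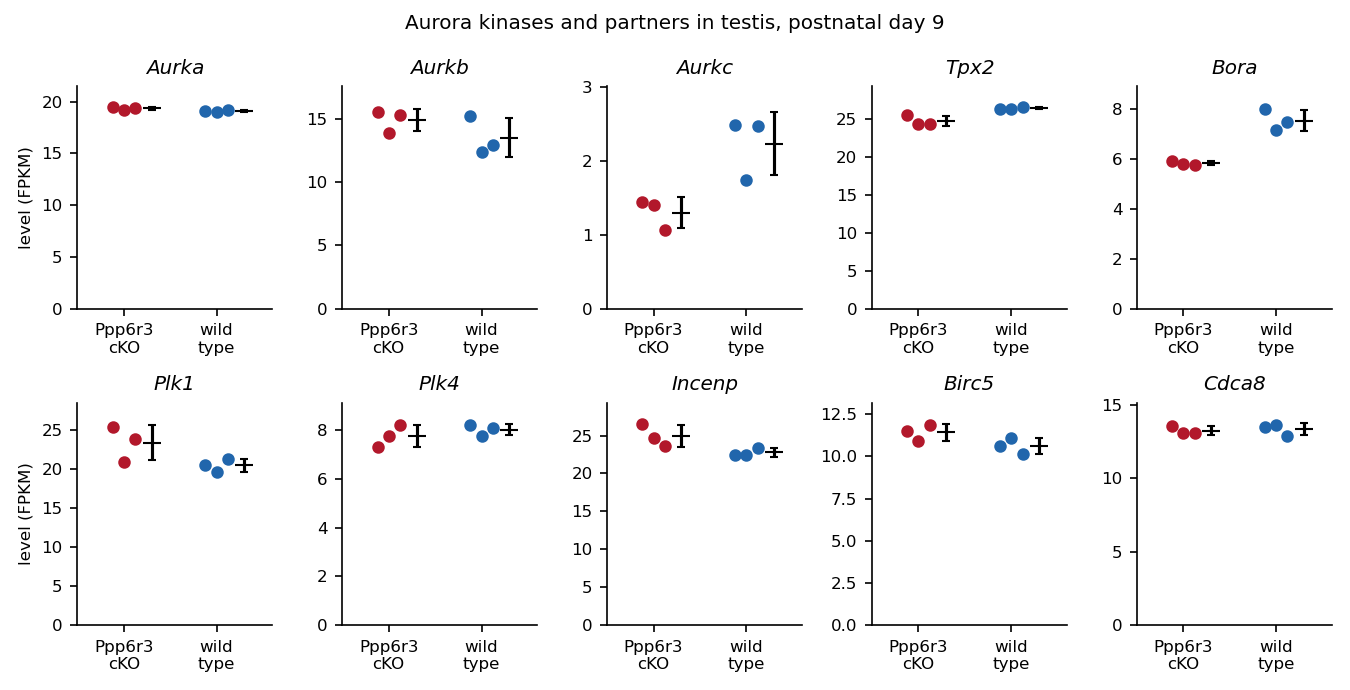
Level of each gene in FPKM (y axes, starting at 0) in the 3 Ppp6r3 cKO libraries (red) and the 3 wild-type libraries (blue), with the mean and SD of each group in black. Bora and Aurkc lie lower in every Ppp6r3 cKO library, and Aurka is level across all 6.

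In Ppp6r3 cKO, FPKM levels ran from Incenp (24.9) through Tpx2 (24.7), Plk1 (23.4), Aurka (19.4), Aurkb (14.9), Cdca8 (13.2), Birc5 (11.4), Plk4 (7.76) and Bora (5.82) down to Aurkc (1.30). The libraries of Incenp, Tpx2 and Plk1 overlapped there, and those of the other neighbours did not. In wild type Tpx2 (26.4) stood before Incenp (22.8), and the rest kept that order, with Plk1 at 20.5, Aurka at 19.1, Aurkb at 13.5, Cdca8 at 13.3, Birc5 at 10.6, Plk4 at 8.02, Bora at 7.52 and Aurkc at 2.23 FPKM. Neighbours whose libraries overlapped in wild type were Aurkb and Cdca8, and Plk4 and Bora. The level of Incenp rests on another exon length than GENCODE M21 gives: its values were whole fragments with 3217 bases in place of 4329.

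Among the Aurora kinases, Aurka (ENSMUSG00000027496, chromosome 2, 172356190 to 172370535, minus strand) had 19.476, 19.159 and 19.415 FPKM in Ppp6r3 cKO, against 19.128, 18.979 and 19.197 FPKM in wild type. The groups overlapped, and the log2 fold change was 0.02 (95% interval -0.07 to 0.11, limma adjusted p = 0.781). Aurkb (ENSMUSG00000020897, chromosome 11, 69045647 to 69051664, plus strand) had 15.532, 13.869 and 15.312 FPKM in Ppp6r3 cKO, against 15.248, 12.357 and 12.944 FPKM in wild type. Wild-type replicate 1 lay among the Ppp6r3 cKO libraries, and the log2 fold change of 0.14 did not pass (95% interval -0.05 to 0.33, adjusted p = 0.28). RefSeq lists a pseudogene of Aurkb, with which it may share reads.

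Aurkc (ENSMUSG00000070837, chromosome 7, 6995300 to 7003091, plus strand) had 1.442, 1.397 and 1.058 FPKM in Ppp6r3 cKO, against 2.491, 1.741 and 2.467 FPKM in wild type. Each library of Ppp6r3 cKO was lower than each of wild type, an order seen in 18.2% of all genes tested. These levels rest on few reads, 36, 34 and 26 fragments in Ppp6r3 cKO and 63, 44 and 60 in wild type. The fall was 0.73 on the log2(FPKM + 0.1) scale (SE 0.18, 95% interval -1.14 to -0.32, limma adjusted p = 0.0291), and with a pseudocount of 1 the log2 fold change was -0.49. The call was lost in 8 of the 18 alternatives, among them without Ppp6r3 cKO replicate 2 (adjusted p = 0.0537) or 3 (0.076), without wild-type replicate 1 (0.0904) or 3 (0.101), and with no low-value filter (0.0854). Aurkc made up 3.66% ± 0.609 of the summed FPKM of the Aurora kinases in Ppp6r3 cKO and 6.38% ± 0.986 in wild type (SD, n = 3 each), and the sum of all 3 kinases overlapped between groups, at 35.6 ± 1.03 FPKM in Ppp6r3 cKO and 34.9 ± 1.91 FPKM in wild type.

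Of the activators, Bora (ENSMUSG00000022070, chromosome 14, 99046222 to 99074540, plus strand), the cofactor through which Aurora A switches on PLK1, had 5.92, 5.792 and 5.76 FPKM in Ppp6r3 cKO, against 7.981, 7.123 and 7.449 FPKM in wild type. The 3 Ppp6r3 cKO libraries lay close together and below every wild-type library. The fall was 0.36 on the log2 scale (SE 0.06, 95% interval -0.50 to -0.22, limma adjusted p = 0.00749), with 477 to 500 fragments in Ppp6r3 cKO and 609 to 683 in wild type behind it. Bora was called in each of the 18 alternatives, with log2 fold changes of -0.40 to -0.32.

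Tpx2 (ENSMUSG00000027469, chromosome 2, 152847964 to 152895321, plus strand) had 25.514, 24.268 and 24.378 FPKM in Ppp6r3 cKO, against 26.355, 26.301 and 26.548 FPKM in wild type. Its groups did not overlap, but the log2 fold change of -0.09 (95% interval -0.18 to -0.005) did not pass (adjusted p = 0.14). Plk1 (ENSMUSG00000030867, chromosome 7, 122159439 to 122169873, plus strand) had 25.385, 20.913 and 23.783 FPKM in Ppp6r3 cKO, against 20.483, 19.651 and 21.241 FPKM in wild type. Ppp6r3 cKO replicate 2 lay within the wild-type range, and the log2 fold change of 0.19 (95% interval 0.02 to 0.35) did not pass (adjusted p = 0.117). Plk1 was called higher in 3 of the 18 alternatives, among them without Ppp6r3 cKO replicate 2 (log2 fold change 0.26, adjusted p = 0.0302) and with voom on recovered fragments (0.19, adjusted p = 0.0455). Its transcripts have a GC content of 56.1%, and its highest value was in Ppp6r3 cKO replicate 1, without which the log2 fold change was 0.12; after the GC and length correction it was 0.20 (adjusted p = 0.0605). A gene model of unknown kind, Gm44985, covers 156 of the 2199 exon bases of Plk1 on the opposite strand, at 0.31 to 0.37 FPKM in Ppp6r3 cKO and 0.59 to 1.17 FPKM in wild type.

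**Figure D2:**
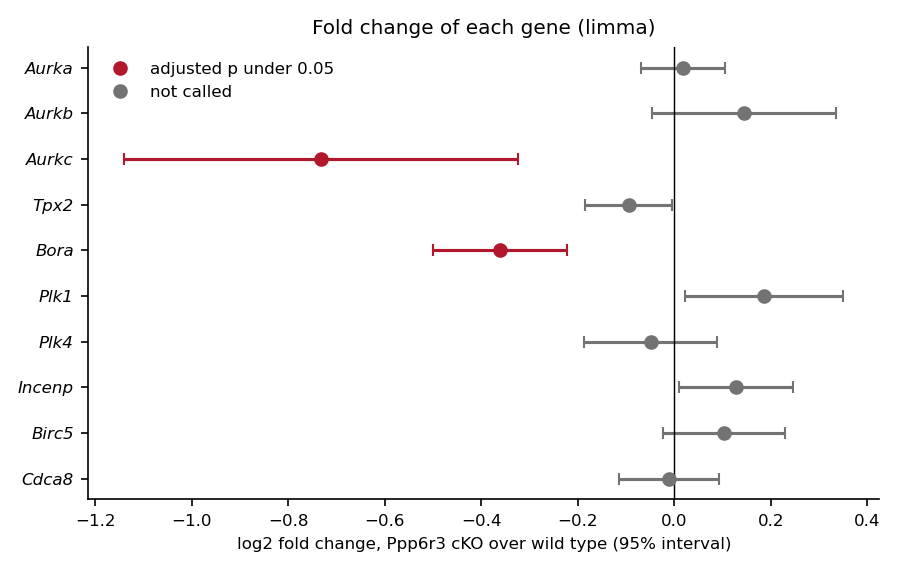
Log2 fold change of each gene, Ppp6r3 cKO over wild type (x axis), with its 95% interval from limma; red marks an adjusted p under 0.05. Bora (-0.36) and Aurkc (-0.73) are the genes called, and the interval of Aurka runs from -0.07 to 0.11.

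In the chromosomal passenger complex, Incenp (ENSMUSG00000024660, chromosome 19, 9872296 to 9899551, minus strand), the scaffold that holds Aurora B, had 26.474, 24.701 and 23.557 FPKM in Ppp6r3 cKO, against 22.387, 22.482 and 23.415 FPKM in wild type. The groups lay just apart, and the log2 fold change of 0.13 (95% interval 0.01 to 0.25) did not pass (adjusted p = 0.131). Birc5 (ENSMUSG00000017716, chromosome 11, 117849251 to 117855743, plus strand) had 11.495, 10.906 and 11.876 FPKM in Ppp6r3 cKO, against 10.638, 11.108 and 10.16 FPKM in wild type. They overlapped through Ppp6r3 cKO replicate 2 and wild-type replicate 2, and the log2 fold change was 0.10 (adjusted p = 0.245). Cdca8 (ENSMUSG00000028873, chromosome 4, 124918465 to 124939311, minus strand) had 13.576, 13.065 and 13.046 FPKM in Ppp6r3 cKO, against 13.481, 13.633 and 12.881 FPKM in wild type. Its groups were interleaved, with a log2 fold change of -0.01 (95% interval -0.12 to 0.09, adjusted p = 0.897), and 232 of its 5177 exon bases lie opposite exons of 9930104L06Rik. Plk4 (ENSMUSG00000025758, chromosome 3, 40800019 to 40816883, plus strand) had 7.289, 7.758 and 8.217 FPKM in Ppp6r3 cKO, against 8.222, 7.763 and 8.074 FPKM in wild type, and overlapped as well (log2 fold change -0.05, adjusted p = 0.627). Groups did not overlap in 4 of the 10 genes and in 36.9% of all genes tested.

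Ratios within a library set partners against each other, and 6 were computed. Aurkc over Aurkb was 0.0928, 0.1007 and 0.0691 in Ppp6r3 cKO, against 0.1634, 0.1409 and 0.1906 in wild type. Bora over Plk1 was 0.2332, 0.2769 and 0.2422 in Ppp6r3 cKO, against 0.3897, 0.3625 and 0.3507 in wild type. Both ratios were lower in every Ppp6r3 cKO library, as were Bora over Aurka (0.301 ± 0.00381 in Ppp6r3 cKO and 0.394 ± 0.0215 in wild type, SD, n = 3 each) and Tpx2 over Aurka (1.28 ± 0.0288 in Ppp6r3 cKO and 1.38 ± 0.00406 in wild type). Each of these 4 gave p = 0.1 in a 2-sided exact permutation test (0.15 when adjusted over the 6 ratios), the smallest that 3 against 3 libraries allow. Their numerators, Aurkc, Bora and Tpx2, by themselves lay below wild type in every Ppp6r3 cKO library. These ratios largely repeat that order and are no separate support for it. Incenp over Aurkb and Aurkb over Aurka overlapped between groups (exact permutation p = 0.8 and 0.3, adjusted 0.8 and 0.36).

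**Figure D3:**
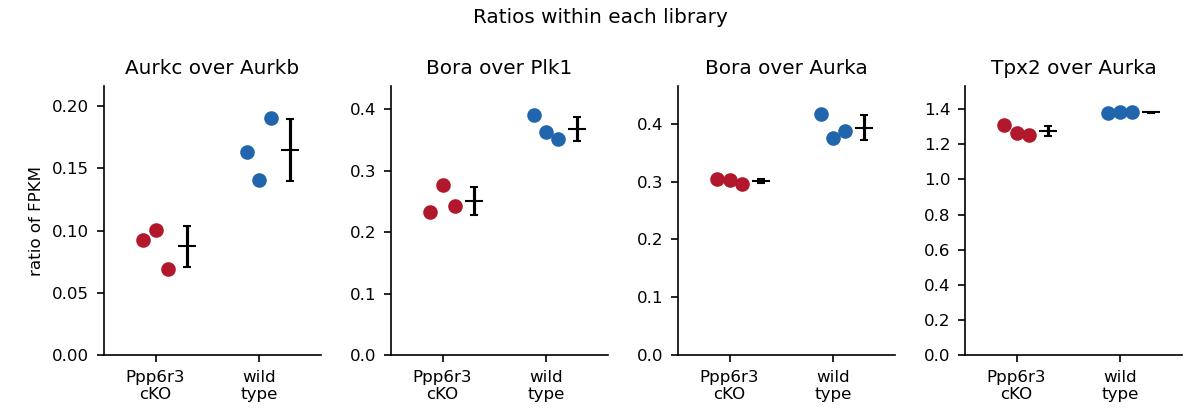
Ratio of the FPKM of 2 genes within each library (y axes, starting at 0) in Ppp6r3 cKO (red) and wild type (blue), with the mean and SD of each group in black. In these 4 ratios every Ppp6r3 cKO library lies below every wild-type library.

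The genes around this group were followed in lists named for their roles. The counts below stand beside 15.5% called over all genes tested, 7.65% higher and 7.83% lower. A few calls in a list of 23 are close to that share. Of 23 activators and centrosomal or spindle partners of Aurora A and PLK1, 2 rose, 1 fell and 20 were not called; the median log2 fold change was 0.01. Nedd9, a scaffold protein that can activate Aurora A, rose by 0.24 (adjusted p = 0.0146), Numa1, which anchors spindle poles, rose by 0.19 (0.0179), and the microtubule polymerase gene Ckap5 fell by 0.17 (0.037). Ckap5 was no longer called when any 1 library was left out. The call of Nedd9 was lost without wild-type replicate 2 or 3, and that of Numa1 without these or Ppp6r3 cKO replicate 2, as well as after correction for GC and length (0.13).

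Of 23 targets and docking partners of the passenger complex, 1 rose, 4 fell and 18 did not pass (median -0.04). Spc24 and Spc25, subunits of the NDC80 complex that binds microtubules at the kinetochore, fell by 0.35 (adjusted p = 0.0109) and 0.30 (0.0182). Kif23, a motor of the central spindle, fell by 0.33 (0.00431), and the kinetochore gene Dsn1 fell by 0.23. Kif20a, a motor that carries the complex to the central spindle, was the gene that rose, with 24.268, 25.186 and 24.763 FPKM in Ppp6r3 cKO, against 21.003, 20.132 and 20.041 FPKM in wild type (log2 fold change 0.28, adjusted p = 0.00453). Dsn1 and Kif20a were named after their values were seen. The call of Spc25 depended on wild-type replicates 2 and 3, being lost without either, and without wild-type replicate 2 the list had 2 falling genes.

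Among 22 other mitotic and checkpoint kinases tested, 1 rose, 3 fell and 18 did not pass (median 0.05). Bub1, the kinase whose histone mark recruits the passenger complex to centromeres, had 12.961, 14.83 and 13.933 FPKM in Ppp6r3 cKO, against 20.413, 19.988 and 20.68 FPKM in wild type. The groups lay far apart, and the fall was 0.55 (SE 0.06, limma adjusted p = 0.00104). Chek1, the kinase of the replication checkpoint, fell by 0.45 (0.00606), and Vrk1, named after its values were seen, fell by 0.29. Plk3, a stress-responsive relative of PLK1, had 2.073, 2.25 and 2.008 FPKM in Ppp6r3 cKO, against 1.309, 1.476 and 1.089 FPKM in wild type, a rise of 0.68 (0.0149) that was not called without Ppp6r3 cKO replicate 2 (0.0503); without Ppp6r3 cKO replicate 1, 2 kinases rose. Haspin, listed with the passenger complex because its histone mark places it, had a log2 fold change of 0.11 and was not called, nor was Cdk1 (0.15), the main mitotic kinase. These 2 were named after their values were seen.

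Of 23 genes for subunits or inhibitors of phosphatases known to oppose mitotic kinases, 1 rose, 2 fell and 20 did not pass (median 0.04), the targeted gene being 1 of those that fell. After correction for GC and length 4 rose and 2 fell. In that setting 1786 of all 17660 genes rose and 1569 fell, against 1352 and 1383 of 17667 in the main fit. Ppp6c, which encodes the catalytic subunit of PP6, fell by 0.14 (limma adjusted p = 0.0445) whereas Ankrd52, an ankyrin repeat subunit of PP6, rose by 0.26 (0.0208). Ppp6c was no longer called when any 1 library was left out or after correction for GC and length (-0.09), nor Ankrd52 without any wild-type library or Ppp6r3 cKO replicate 2. Of 23 genes of the ubiquitin ligases that mark these kinases for degradation, 1 rose, 3 fell and 19 did not pass (median -0.01). Anapc5, a subunit of the anaphase-promoting complex, fell by 0.23 (0.00527), and Fzr1, the adaptor through which the complex recognises Aurora A, rose by 0.24 (0.0434). Fbxo43, an inhibitor of the complex in germ cells, fell by 0.95 (0.038) at 0.144 FPKM in Ppp6r3 cKO and 0.364 FPKM in wild type, and it was no longer called when any 1 library was left out, nor was Fzr1. Without any 1 wild-type library or Ppp6r3 cKO replicate 2, 1 gene of this list fell.

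Markers of G2 and mitosis moved in both directions: of 30, 2 rose, 5 fell and 23 did not pass (median 0.05). Over all genes tested, 7.65% rose and 7.83% fell. The summed level of the 30 was higher in every Ppp6r3 cKO library (973 to 984 FPKM, against 935 to 954 FPKM in wild type). Such a sum is weighted to its most abundant genes, and 18.8% of all genes tested had that order singly. Of the 30 genes, 12 had a negative log2 fold change. Mki67, the proliferation marker, fell by 0.46 (adjusted p = 0.00427), Cenpf by 0.39 (0.0184) and Kif15 by 0.29 (0.0391), while cyclin B1 (Ccnb1, named after its values were seen) rose by 0.17. Without wild-type replicate 1, 2 or 3, 2 of the list fell and at most 1 rose. Without Ppp6r3 cKO replicate 2 or 3, 1 rose. After correction for GC and length 6 rose, with 1786 of all 17660 genes higher, against 1352 of 17667 in the main fit. Kif15 was no longer called when any 1 library was left out, nor Cenpf without wild-type replicate 1 or 3. Of 16 regulators of the G2 and mitosis programme, E2f1 rose by 0.30 (0.00944) and 15 did not pass (median 0.05), among them Foxm1 (0.11) and Mybl2 (0.14), which act on genes with a CHR and were named after their values were seen.

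**Figure D4:**
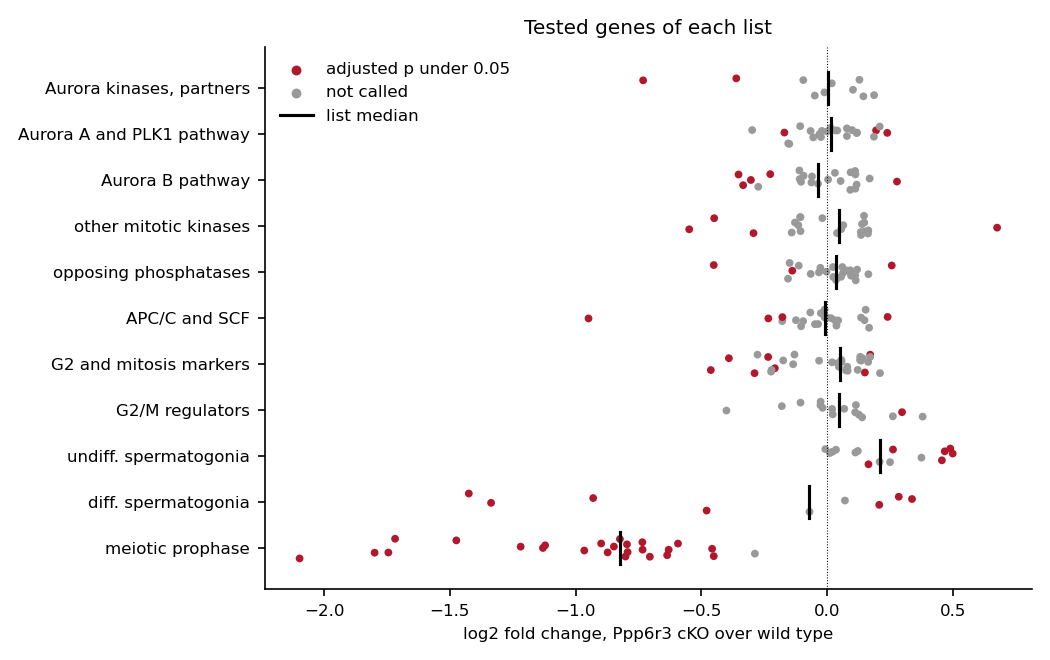
Log2 fold change, Ppp6r3 cKO over wild type (x axis), of the tested genes of each list, 1 point per gene; red marks an adjusted p under 0.05 and the black line the list median. The lists of mitosis centre near 0, with medians from -0.04 to 0.05, and the meiotic prophase genes lie at a median of -0.82.

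Germ cell markers moved beside Bora and Aurkc. Of 25 tested meiotic prophase genes 24 fell (median -0.82, beside -0.36 for Bora and -0.73 for Aurkc), led by Meiob (-2.10), Spo11 (-1.80) and Msh5 (-1.75), which act in meiotic recombination. The 9 genes listed for differentiating spermatogonia summed to 249 to 269 FPKM in Ppp6r3 cKO and 377 to 390 FPKM in wild type. Of these, 4 were lower, Stra8 and Prdm9 with them, 3 were higher and 2 uncalled (median -0.07). Most of the difference in the sum lay in Stra8 (mean 51.4 FPKM in Ppp6r3 cKO and 129.9 FPKM in wild type) and Prss50 (36.9 and 70.4 FPKM). Markers of undifferentiated spermatogonia summed to 210 to 220 FPKM in Ppp6r3 cKO and 180 to 187 FPKM in wild type; 6 of 15 tested rose, or 3 without wild-type replicate 2 (median 0.21). No marker of these 3 lists was at 0 in any library. Genes of later spermatocytes and spermatids summed to 14.4 to 16.0 FPKM in Ppp6r3 cKO and 22.9 to 25.3 FPKM in wild type, without overlap. Of these 14 genes 9 were too low to be tested, and of the 5 tested 1 fell and 4 were uncalled (median 0.14). The gene that fell, Ybx2, which encodes an RNA-binding protein of germ cells, had 10.227, 8.431 and 9.007 FPKM in Ppp6r3 cKO, against 20.317, 17.841 and 19.166 FPKM in wild type (log2 fold change -1.05, limma adjusted p = 0.000323). Ybx2 made up most of the sum of its list in every library. The fall of that sum lay in Ybx2, and the remaining genes together were not lower in Ppp6r3 cKO. Prm2, a protamine gene of spermatids, was listed at 0 in all 3 Ppp6r3 cKO libraries and in wild-type replicate 2. The part of these cells in the levels of Bora and Aurkc was not tested. Among the somatic cells, 6 of 10 endothelial markers rose (median 0.43), as did 3 of 9 macrophage markers (median 0.22), while 3 of 7 myoid (median -0.18) and 3 of 5 tested erythroid genes fell (median -0.54). Of 14 Sertoli markers 3 rose and 2 fell (median 0.01; 1 fell without any 1 wild-type library), and of 8 Leydig markers 1 rose (median 0.07).

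The profile of log2(FPKM + 0.1) over the 6 libraries, centred on its mean, was compared with those of 12250 other named genes of at least 1 FPKM. The genes nearest to Bora were Lrr1, Evi5l and Sharpin, at root mean square differences of 0.0207, 0.0224 and 0.0248 on the log2 scale. Aurkc had no gene as near: Zfp335os, Fam160a1 and Syn2 stood at 0.107, 0.113 and 0.137. It rests on 26 to 63 fragments per library, and the part of counting noise in its distances was not tested. Aurka was nearest to Mrpl43 (0.0103), Rbbp4 (0.0123) and Ctnnal1 (0.0131). All had log2 fold changes of 0.02, a likeness that follows from the choice by profile. Set among all genes tested, Aurkc was low in level (above 29.9% of them) and its fold change was larger in size than that of 97.0%. Bora was near the middle in level (above 55.7%) and larger in fold change than 84.4%, and Aurka was high in level (above 80.6%) and larger in fold change than 7.2%.

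**Figure D5:**
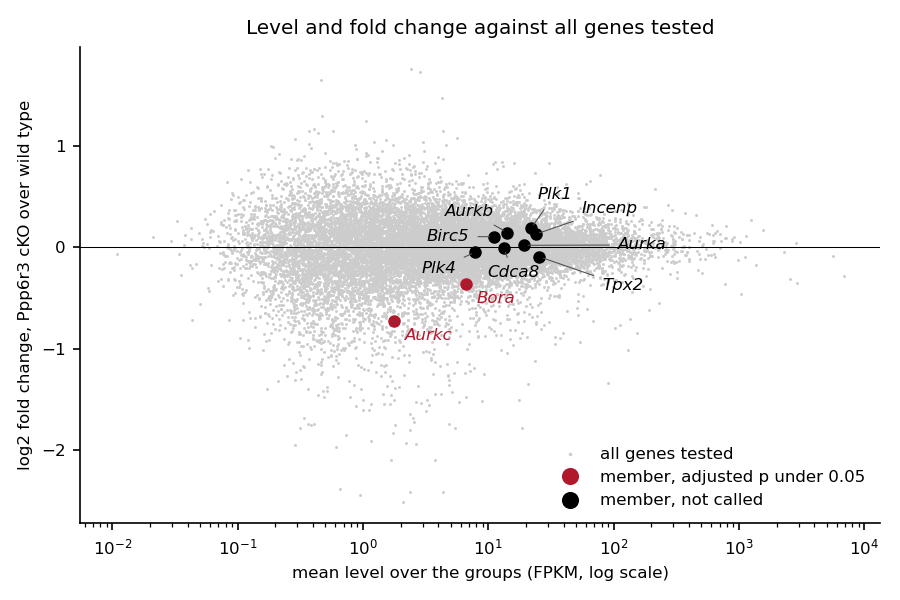
Mean level over the groups in FPKM (x axis, log scale) against log2 fold change, Ppp6r3 cKO over wild type (y axis), for all genes tested (grey) and the 10 genes described (red where the adjusted p is under 0.05, otherwise black). Aurkc and Bora lie below the cloud of the other 8, which stay between -0.09 and 0.19.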

How the data were processed

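Whole testis on postnatal day 9 was profiled in 3 Ppp6r3 cKO and 3 wild-type libraries. Per the labels' protocols, RNA was extracted with TRIzol and libraries of polyadenylated RNA were made with a stranded KAPA kit. Alignment to mm10 was with HISAT2 2.0.5, per the series' design text, and DESeq2 is named in the submitters' processing notes. For the counting tool, strand setting and annotation the entry is: not given in the sources used here. Overlapping genes and copies such as pseudogenes may share reads.

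The deposited table is named for counts but holds FPKM made by the authors. Multiplied by GENCODE M21 exon lengths, 97.1% of 32573 genes above 0 were whole multiples of a step per library (tolerance 0.01), which gave the depths. Precision at low levels is limited by the fragments behind them. Genes with at least 10 fragments in at least 3 libraries were tested on log2(FPKM + 0.1) with limma 3.58.1 in R 4.3.3 (trend, robust, 2-sided), Benjamini-Hochberg adjusted over all 17667 genes, threshold 0.05. Coordinates are of GENCODE M21 (GRCm38, that is mm10). Voom, an alternative, was run on recovered fragments with TMM scaling. The fit was tested on simulated data. No replicate pair agreed within counting error (chi-square over its degrees of freedom, 2.22 to 4.29).

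The 10 genes and the 17 other lists (280 genes, all matched, 3 through RefSeq) were chosen with earlier results of these data known. Named were the 10 genes, Ppp6r3, up to 3 called genes of each list of mitosis genes with the largest change, and, for Aurka and the called genes, the 3 nearest profiles; other names are marked, or are markers of germ cells.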

Additional observations from a re-analysis of the deposited data

How the results depend on the processing

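Bora kept its call in all 18 alternatives, and none of the 10 genes reversed a called direction. Over these genes, Ppp6r3 and the leading genes of all lists, 880 values under alternatives stayed on the same side of the threshold, 106 lost their call and 3, all of Plk1, gained one. Genes of the 10 called higher numbered 1 (Plk1) with voom, and 1 also when GC and length were corrected together with the replicate block, and 0 to 1 without 1 library. Those called lower numbered 1 (Bora) with no low-value filter, under the replicate block, under block and correction together, at an adjusted p under 0.01, and 1 to 2 without 1 library. Aurkc had an adjusted p of 0.0521 with the replicate block and 0.0743 with the block and correction. With block and correction together Plk1 was called (0.20, adjusted p = 0.0396), and the calls of E2f1 (0.27, 0.0613), Numa1, Ankrd52, Ppp6c, Fzr1 and Kif15 were lost; the block alone ended those of Ckap5, Ppp6c and Kif15. The labels do not say whether the replicate numbers pair the samples. Deviations of same-numbered libraries correlated at 0.016, -0.007 and -0.006 across genes, which shows no shared shift but cannot exclude a pairing.

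Over all genes 1508 were called with no filter (740 higher, 768 lower) and 888 at an adjusted p under 0.01 (418 higher, 470 lower). Voom called 4064 (2048 higher, 2016 lower) and the GC and length correction 3355 (1786 higher, 1569 lower). Without 1 library 1234 to 2397 were called, 597 to 1121 higher and 637 to 1276 lower. With voom the lists of mitosis genes had up to 5 higher and 9 lower (both in the markers of G2 and mitosis). After the GC and length correction 3 other kinases were higher. The cause of these changes was not tested. A stricter threshold can only pass fewer genes. Each fit without 1 library called fewer genes than the 2735 of the main fit, although Plk1 gained a call without Ppp6r3 cKO replicate 2.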
